A study of Mus musculus with 4 samples.

Results

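Transcripts of 10 eosinophil genes were followed in mouse lung, out of 41079 genes in the deposited count table. The genes were taken by symbol and all 10 were found. They encode granule proteins (Epx and Prg2), eosinophil-associated ribonucleases (Rnase2a, Rnase2b, Ear1, Ear2, Ear6 and Ear10) and the receptors for eotaxin and for IL-5 (Ccr3 and Il5ra). Bulk lung RNA was sequenced from WT and from Rab44-KO mice, each kept normal or OVA-induced, with 1 library for each of the 4 combinations. Rab44-KO mice carried a CRISPR/Cas9-edited Rab44, a large Rab GTPase, on a C57BL/6 background, and WT mice were littermates. Mice were females of 8 to 14 weeks. For allergic airway inflammation, 100 μg ovalbumin (OVA) with the adjuvant alum was injected into the peritoneum on days 0, 7 and 14. The same dose of OVA in 50 μL was given through the nose from day 17 to day 20, and lungs were taken on day 21. Normal mice are given as untreated by the labels, whereas the protocol text beside them also names PBS. The number of mice behind a library is not given in the sources used here.

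Eosinophils are granulocytes that leave the bone marrow under IL-5 and enter tissue along gradients of eotaxins, which bind the receptor CCR3. Their granules hold major basic protein, a peroxidase and small cationic ribonucleases. They are a hallmark of allergic lung inflammation. In the mouse, the ribonuclease genes multiplied into the Ear family, and transcripts of some Ear genes are also known from macrophages, so that a lung sample need not owe them to eosinophils alone. In bulk lung, fewer cells of a type and less RNA per cell cannot be told apart.

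Where 4 values of a gene follow each other, their order is WT and then Rab44-KO lungs under normal conditions, and then WT and Rab44-KO lungs after OVA. Rab44 had 251, 1, 810 and 0 counts, so both libraries labelled Rab44-KO held at most 1 count of the edited gene. Library totals were 18112901 to 19910236 counts. With 1 library per group, every comparison is between libraries, has no replicate check and carries no p-value. Counts were scaled to library size as CPM, with TMM factors. Ranges in parentheses are exact 95% intervals that cover counting error only. A gene was compared when the higher library held at least 10 counts, and a difference over 2-fold was counted as such. A count of 0 allows up to 3 counts, or 0.154 to 0.164 CPM depending on the library. Of the 10 genes, 9 had at least 1 count in any library and 8 reached 10 counts.

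The label of the gene set was first set against defining eosinophil transcripts. Epx, the eosinophil peroxidase, had 0, 0, 1 and 0 counts. Prg3, a homologue of major basic protein, had 0, 0, 3 and 2 counts in the same order. Both defining granule transcripts were therefore at or near 0 in every library. Siglecf, a sialic acid-binding surface receptor of eosinophils and alveolar macrophages, had 268, 222, 407 and 175 counts. Over the 6 markers Epx, Prg2, Prg3, Ccr3, Il5ra and Siglecf, the summed TPM (the deposited level per length and library) was 17.2, 18.7, 55.4 and 20.7. All 4 that could be compared between genotypes with OVA were over 2-fold lower in Rab44-KO, against 7.34% of all genes. Of these 4, only Siglecf lies outside the gene set, so this count is not separate from the count over the set given below.

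All 6 ribonuclease genes lie on chromosome 14 of GRCm38 in 2 groups (GENCODE M21). Ear1 (chr14:43818765-43875517, minus strand), Ear10 (chr14:43922720-43923559, minus strand) and Ear2 (chr14:44102654-44103534, plus strand) form the first, and 7058725 bases separate Ear2 from the second. That group holds Rnase2b (chr14:51162260-51163018, plus strand), Rnase2a (chr14:51255262-51256112, minus strand) and Ear6 (chr14:51853699-51854643, plus strand). Each of the 6 has 1 or 2 exons. Over 15 pairs, their coding sequences were 77.1% to 97.0% identical, with a median of 79.8%. Ear1 and Ear2 shared 95.1% and Rnase2a and Rnase2b 83.8%. Epx lies at chr11:87864000-87875536 (minus strand, 13 exons), Prg2 at chr2:84980461-84983632 (plus strand, 6 exons), Ccr3 at chr9:124021972-124031689 (plus strand, 2 exons) and Il5ra at chr6:106710357-106749037 (minus strand, 13 exons).

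The promoter windows of the ribonucleases are shown because genes of related sequence had different counts after OVA. Each ribonuclease window runs from 250 bases before to 50 bases after the RefSeq gene start (GRCm38.p6) and is written 5′ to 3′ on the gene's strand. The RefSeq start of Ear1, at 43819639, lies inside the longer GENCODE M21 span of that gene given above. A window was available for 9 of the 10 genes, Prg2 being the exception. Capitals mark a match to TTGCNNAA, a C/EBP-like motif searched on both strands, which 10.8% of 32851 such windows hold. The windows are chr14:51256063-51256362 for Rnase2a (minus strand), chr14:51162010-51162309 for Rnase2b (plus), chr14:51853518-51853817 for Ear6 (plus), chr14:43819590-43819889 for Ear1 (minus) and chr14:44102404-44102703 for Ear2 (plus).
Rnase2a: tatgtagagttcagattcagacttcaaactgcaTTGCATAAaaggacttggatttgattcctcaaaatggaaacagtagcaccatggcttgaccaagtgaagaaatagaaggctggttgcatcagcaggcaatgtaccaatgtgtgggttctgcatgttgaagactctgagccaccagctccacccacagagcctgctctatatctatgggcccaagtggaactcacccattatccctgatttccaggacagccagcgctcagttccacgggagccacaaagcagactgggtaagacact
Rnase2b: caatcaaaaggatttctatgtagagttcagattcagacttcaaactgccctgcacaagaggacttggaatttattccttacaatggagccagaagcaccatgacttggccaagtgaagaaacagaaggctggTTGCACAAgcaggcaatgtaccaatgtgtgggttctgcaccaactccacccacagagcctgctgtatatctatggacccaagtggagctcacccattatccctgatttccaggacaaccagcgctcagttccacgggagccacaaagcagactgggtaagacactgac
Ear6: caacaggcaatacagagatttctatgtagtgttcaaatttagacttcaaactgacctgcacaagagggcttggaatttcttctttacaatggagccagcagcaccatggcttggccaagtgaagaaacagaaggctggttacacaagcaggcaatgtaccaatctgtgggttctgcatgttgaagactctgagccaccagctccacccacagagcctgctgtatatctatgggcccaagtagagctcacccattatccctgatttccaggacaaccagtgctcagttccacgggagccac
Ear1: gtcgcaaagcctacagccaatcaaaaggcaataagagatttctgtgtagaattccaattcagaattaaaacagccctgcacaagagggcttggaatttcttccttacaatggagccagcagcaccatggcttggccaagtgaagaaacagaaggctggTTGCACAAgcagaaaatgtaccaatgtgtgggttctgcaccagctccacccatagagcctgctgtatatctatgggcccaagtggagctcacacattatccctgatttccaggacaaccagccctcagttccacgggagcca
Ear2: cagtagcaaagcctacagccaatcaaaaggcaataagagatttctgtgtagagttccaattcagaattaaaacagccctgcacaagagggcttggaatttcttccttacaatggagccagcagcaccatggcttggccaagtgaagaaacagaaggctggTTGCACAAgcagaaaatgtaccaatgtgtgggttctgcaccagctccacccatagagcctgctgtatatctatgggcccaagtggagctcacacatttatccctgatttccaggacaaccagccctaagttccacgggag

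Rnase2b, Ear1, Ear2 and Ear10 carried the same 8 letters, TTGCACAA, at -118, -92, -90 and -94 relative to the gene start. In the aligned stretch, counted from 1 at its 5′ end, Ear6 differed from Ear1 by G3A and Rnase2a by C6T and A7C. The match of Rnase2a, TTGCATAA, lay elsewhere, at -217. Ear1 and Ear2 shared 98.0% of window bases and Rnase2a and Rnase2b 86.7%. Over the 15 ribonuclease pairs the share was 74.3% to 98.0%, and over the 21 pairs with Epx, Ccr3 or Il5ra it was 46.0% to 51.7%. No window matched TTCNNNGAA, a STAT-like motif that 8.30% of all windows hold. A match describes letters and was not tested as a binding site.

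**Figure D1:**
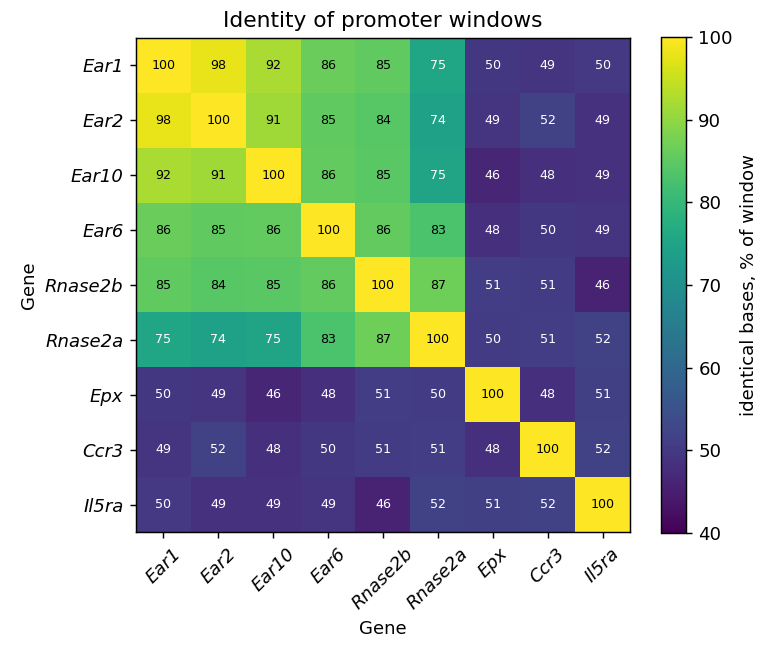
Share of identical bases between the 300-base promoter windows of 9 genes, in percent of the window (colour and printed value). The 6 ribonucleases form a block of 74.3% to 98.0%, and pairs with Epx, Ccr3 or Il5ra lie between 46.0% and 51.7%.

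The receptor promoters are shown for the letters AGATAA, which form the core motif that GATA factors bind, Gata1 of the eosinophil lineage among them. This motif was searched on both strands, is in capitals below and is held by 11.2% of all windows. It starts at -74 relative to the gene start in Il5ra (chr6:106748988-106749287, minus strand). In Ccr3 (chr9:124021721-124022020, plus strand) it covers bases 221 to 226 of the window. The Ccr3 window lies inside the RefSeq gene, whose first base is at 124017825, and beside the GENCODE M21 gene start at 124021972. None of the ribonuclease windows nor that of Epx matched it.
Ccr3: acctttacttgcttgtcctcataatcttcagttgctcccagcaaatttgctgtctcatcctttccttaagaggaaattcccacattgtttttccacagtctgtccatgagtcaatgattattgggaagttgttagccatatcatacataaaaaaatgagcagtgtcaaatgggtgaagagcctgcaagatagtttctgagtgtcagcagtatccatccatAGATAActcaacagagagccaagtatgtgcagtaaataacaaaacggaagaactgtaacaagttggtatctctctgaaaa
Il5ra: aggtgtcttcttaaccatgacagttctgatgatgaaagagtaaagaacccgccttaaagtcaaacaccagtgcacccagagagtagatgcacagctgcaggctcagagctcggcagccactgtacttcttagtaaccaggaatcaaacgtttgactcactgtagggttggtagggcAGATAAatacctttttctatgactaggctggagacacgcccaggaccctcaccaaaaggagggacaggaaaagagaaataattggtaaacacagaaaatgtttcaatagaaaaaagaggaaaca

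To find whether granule transcripts differed with Rab44 and with OVA, each gene was compared across the 4 libraries. Prg2 encodes major basic protein, the toxic core of the eosinophil granule. It had 1 count in WT and 9 in Rab44-KO lungs under normal conditions, and 185 and 48 counts after OVA. OVA-induced WT stood highest, OVA-induced Rab44-KO came next, and both normal lungs were under 10 counts. In OVA-induced lungs, Prg2 was 3.88-fold lower in Rab44-KO than in WT (2.81 to 5.45). OVA-induced over normal lungs differed by 7.35 on the log2 scale in WT (5.02 to 12.83) and by 2.30 in Rab44-KO (1.28 to 3.53). Prg2 was thus higher with OVA in both genotypes. The WT ratio rests on 1 count in normal lung. The OVA response of Rab44-KO was smaller than that of WT by a log2 ratio of -5.20 (-10.66 to -2.26). Epx and Ear10, with 1 count in all 4 libraries together, gave no comparison.

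**Figure D2:**
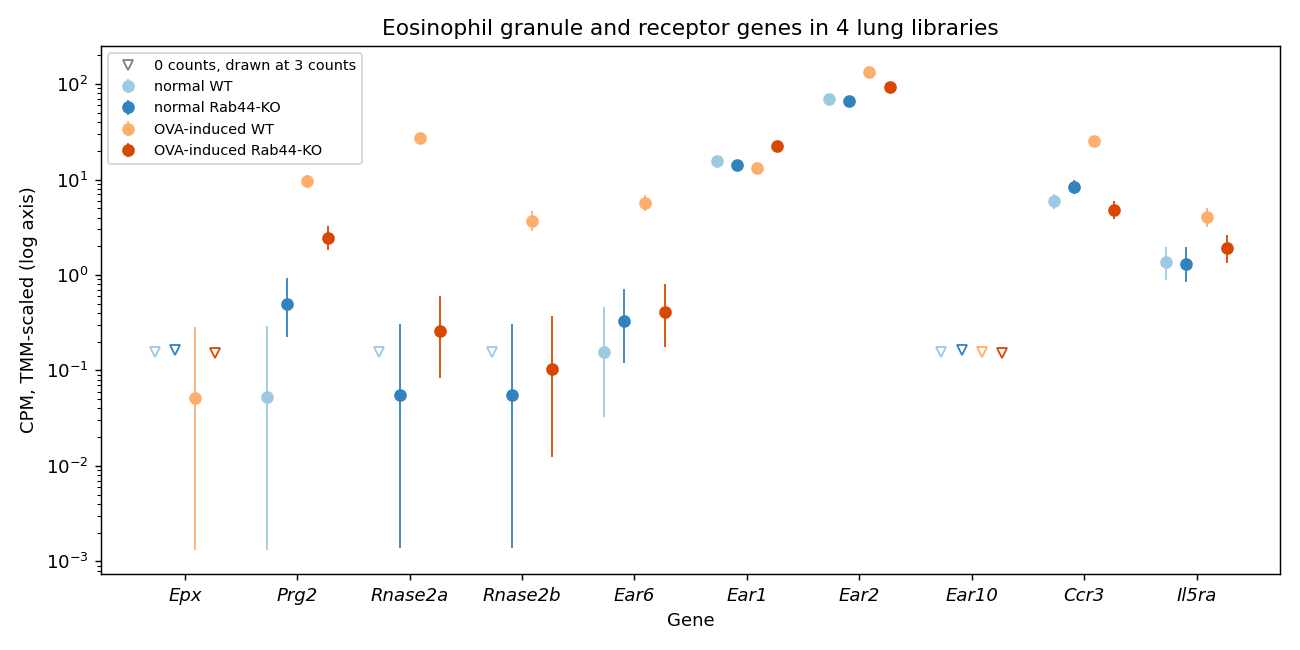
TMM-scaled CPM (log axis) of the 10 genes in the 4 libraries, with exact 95% Poisson intervals as bars and libraries at 0 counts drawn as open triangles at 3 counts. Prg2, Rnase2a, Rnase2b, Ear6, Ccr3 and Il5ra have their highest point in OVA-induced WT, Ear2 as well, whereas Ear1 has it in OVA-induced Rab44-KO (22.4 CPM).

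Rnase2a, also named Ear11, encodes a ribonuclease of the eosinophil-derived neurotoxin type. Its 4 libraries had 0, 1, 524 and 5 counts. Nearly all its counts were in OVA-induced WT. In OVA-induced lungs it was 105-fold lower in Rab44-KO than in WT (44.9 to 326), at 0.256 against 27.1 CPM. In WT it was at least 173-fold higher with OVA than without, taking 0 as 3 counts, and the exact interval of this ratio began at 140. In Rab44-KO, 1 and 5 counts did not reach the count minimum.

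Rnase2b, formerly Ear5, is the neighbour of Rnase2a, with 92243 bases between the genes. It had 0, 1, 72 and 2 counts in the same order. The pattern over libraries was that of Rnase2a at a lower level. With OVA it was 36.2-fold lower in Rab44-KO than in WT (9.67 to 305), and in WT at least 23.8-fold higher than in the normal lung on the same basis, with an exact interval that began at 18.9.

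Ear6, the ribonuclease gene at the far end of that group, had 3, 6, 110 and 8 counts. Again only the OVA-induced WT library stood above 10 counts. Ear6 was 13.8-fold lower in Rab44-KO than in WT after OVA (6.78 to 32.9) and 36.4-fold higher in WT with OVA than in WT without it (12.1 to 179). The OVA response of Rab44-KO differed from that of WT by -4.86 (-7.65 to -2.27) on the log2 scale. For Rnase2a and Rnase2b only the upper bound of this difference could be had, at -1.25 and 0.62.

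Ear2, of the first group of ribonuclease genes, had the most counts of the 10 genes in every library, with 1336 (WT) and 1212 (Rab44-KO) under normal conditions and 2624 and 1810 after OVA. Both OVA-induced lungs were above both normal lungs. The log2 ratio of OVA-induced over normal was 0.96 in WT (0.87 to 1.06) and 0.48 in Rab44-KO (0.38 to 0.59). None of these passed 2-fold. Rab44-KO over WT was -0.55 with OVA (-0.63 to -0.46) and -0.07 without (-0.18 to 0.05). In the deposited TPM the difference with OVA was -0.22, where the median of all genes was itself shifted by 0.32, so relative to all genes it was about as in CPM. It was -0.06 after a trend of log2 ratio along transcript length was removed.

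Ear1, nearly the same gene as Ear2 by sequence, had 298, 262, 258 and 436 counts. Only the OVA-induced Rab44-KO library stood apart, and it stood above the other libraries. Rab44-KO was 1.68-fold higher than WT with OVA (1.44 to 1.97), a log2 ratio of 0.75 (0.52 to 0.98). Without OVA the log2 ratio was -0.11 (-0.36 to 0.13). With OVA, Ear1 was the only one of the 8 compared genes that was higher in Rab44-KO than in WT, and it passed 2-fold after removal of the length trend (1.23). In TPM it was at 1.07, with the same shift of all genes. OVA-induced over normal was -0.22 in WT (-0.47 to 0.02) and 0.64 in Rab44-KO (0.42 to 0.87). The 2 responses differed by 0.86 (0.52 to 1.20), whereas those of Ear2 differed by -0.48 (-0.62 to -0.33). After removal of the length trend, the Ear2 responses were 0.76 in WT and 0.67 in Rab44-KO, closer together than in CPM. Those of Ear1 were then -0.42 and 0.83. In TPM the Ear2 responses were 0.79 and 0.61, where the medians of all genes were shifted by -0.17 and 0.12. Of 150-base stretches of the transcripts, 5.67% in Ear1 were shared with the pseudogene Ear-ps9 and 6.32% in Ear2 with Ear10, so the split of reads between these copies is uncertain in that part. Ear10 had 0 counts in all 4 libraries, and 6.81% of its stretches are shared with Ear2. No 150-base stretch of Rnase2a, Rnase2b or Ear6 was shared with another gene.

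Among the receptors, Ccr3 binds the eotaxins and guides eosinophils into tissue. Its counts were 114 in WT and 153 in Rab44-KO under normal conditions, and 490 and 94 after OVA. The order of genotypes was opposite in normal and OVA-induced lungs. Rab44-KO was 1.41-fold higher without OVA (1.10 to 1.82) and 5.25-fold lower with OVA (4.20 to 6.62). OVA-induced over normal was 2.09 on the log2 scale in WT (1.79 to 2.40) and -0.80 in Rab44-KO (-1.18 to -0.42). Among the 10 genes, Ccr3 was the only one with an interval below 0 for OVA-induced over normal lungs in Rab44-KO. The 2 responses differed by -2.89 (-3.38 to -2.40). Siglecf differed by -1.03 (-1.40 to -0.66), and its response was 0.59 in WT and -0.44 in Rab44-KO.

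Il5ra encodes the subunit of the IL-5 receptor that confers specificity for the cytokine. It had 26, 24, 78 and 37 counts. The 2 normal lungs differed by a log2 ratio of -0.04 (-0.91 to 0.82), and OVA-induced WT was highest. Il5ra was 2.12-fold lower in Rab44-KO than in WT with OVA (1.42 to 3.23). In TPM the log2 ratio was -0.72, under the same shift of all genes as for Ear2. OVA-induced over normal was 1.57 in WT (0.92 to 2.27) and 0.53 in Rab44-KO (-0.25 to 1.33). The interval of the difference between these responses, -1.04 (-2.10 to 0.02), reached 0.

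**Figure D3:**
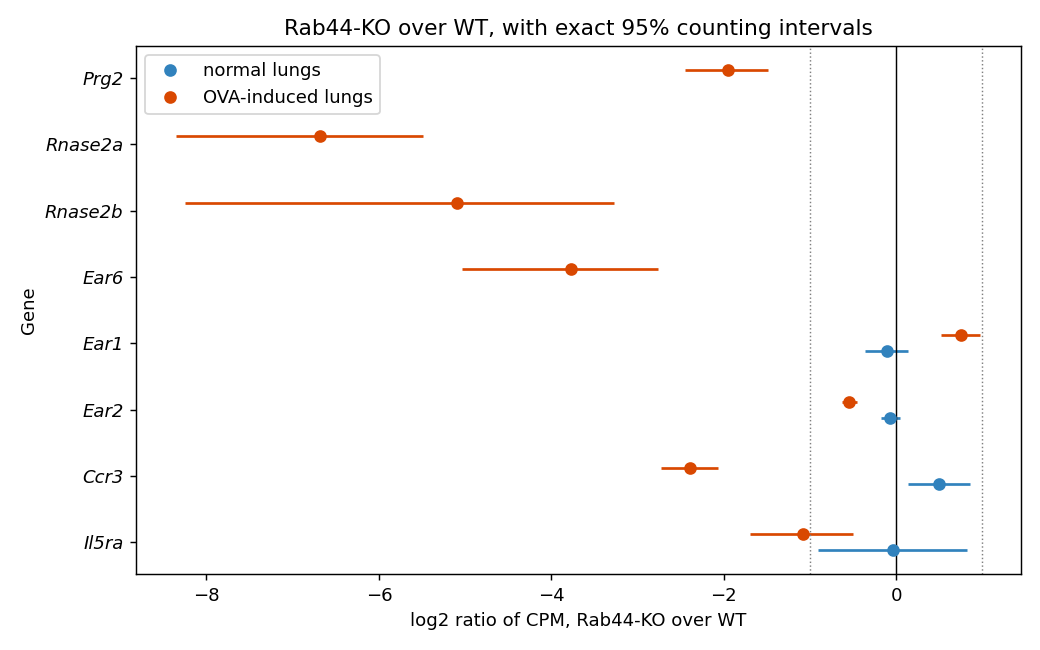
Log2 ratio of CPM, Rab44-KO over WT, in normal (blue) and OVA-induced lungs (orange), with exact 95% counting intervals and dotted lines at 2-fold. With OVA, 6 genes lie beyond 2-fold on the lower side, from Rnase2a (-6.69) to Il5ra (-1.08), and Ear1 lies at 0.75. In normal lungs 4 genes could be compared and none passed 2-fold.

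Counted together, 8 of the 10 genes could be compared between genotypes in OVA-induced lungs, 6 were over 2-fold lower in Rab44-KO and none over 2-fold higher. Their median log2 ratio was -2.17, against -0.02 over all 19259 genes compared. Of those genes, 7.34% were over 2-fold lower and 8.4% higher. In normal lungs, 4 genes could be compared, none passed 2-fold in either direction, and the median was -0.05 against 0.00 over 18718 genes. There, 2.77% of all genes were over 2-fold higher and 2.0% lower. In OVA-induced lungs, Rnase2a, Rnase2b and Ear6 reached the minimum only through the WT library, in which they were high, so a count over the 8 compared genes cannot stand for the whole set.

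For OVA-induced over normal lungs, 6 of 8 compared genes were over 2-fold higher in WT, with a median of 3.61 (3.33 with Rnase2a and Rnase2b at their bounds) against 0.00 over all genes. Prg2, Rnase2a, Rnase2b and Ear6 reached the minimum only through the OVA-induced library, in which they were high, so their calls follow in part from the filter. Of 19023 genes, 8.99% were over 2-fold higher and 5.2% lower. In Rab44-KO, 5 genes could be compared and Prg2 alone was over 2-fold higher, with a median of 0.53 against -0.01. Prg2, with 9 and 48 counts, reached the minimum only through the OVA-induced library, and it was not compared at a minimum of 50 counts. Of 19073 genes, 6.44% were over 2-fold higher and 3.85% lower. The OVA response of WT and the genotype comparison with OVA share the OVA-induced WT library, so that their values are not separate evidence. The genes of this set that were over 2-fold higher in the one and lower in the other were Prg2, Rnase2a, Rnase2b, Ear6, Ccr3 and Il5ra.

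**Figure D4:**
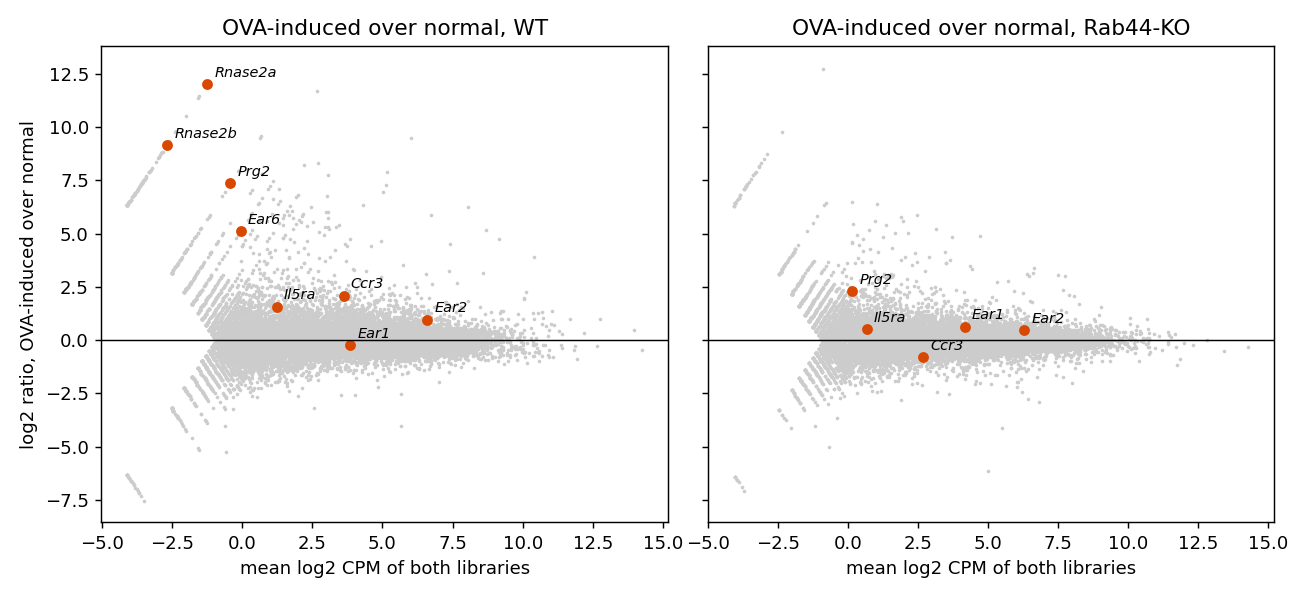
Log2 ratio of OVA-induced over normal lungs against the mean log2 CPM of the 2 libraries, for WT (left) and Rab44-KO (right), with all compared genes in grey and the eosinophil genes in orange. Rnase2a and Rnase2b had 0 counts in normal WT, and their height depends on the prior count. In Rab44-KO, Prg2 (2.30) is highest of 5 genes and Ccr3 (-0.80) lies below 0.

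Levels of different genes were compared per length, in TPM. In OVA-induced WT lungs the order was Ear2 (398 TPM), Rnase2a (82.5), Ear1 (39.3), Prg2 (21.4), Ear6 (16.8), Ccr3 (15.3), Rnase2b (10.3), Il5ra (2.19) and Epx (0.0325). Counting intervals of Prg2 and Ear6 met, as did those of Ear6 and Ccr3. In OVA-induced Rab44-KO lungs, Ear2 (342) and Ear1 (82.8) led, followed by Prg2 (6.92), Ccr3 (3.65), Ear6 (1.52), Il5ra (1.30), Rnase2a (0.980) and Rnase2b (0.357), and from Ear6 downwards each interval met that of the gene above. Rnase2a thus stood second in the one library and seventh in the other. In both normal lungs Ear2 (231 TPM in WT and 225 in Rab44-KO) and Ear1 (51.7 and 48.8) were followed by Ccr3 (4.04 and 5.82), and all others were at or below 1.27 TPM.

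The summed TPM of the 10 genes was 288 (WT) and 283 (Rab44-KO) under normal conditions and 586 and 440 after OVA. Ear1 and Ear2 made up 98.1%, 96.7%, 74.7% and 96.7% of it. The sum therefore followed Ear1 and Ear2 in 3 libraries, and the other genes took a larger share only in OVA-induced WT. The TPM ratio of Ear2 to Ear1 was 4.46, 4.61, 10.1 and 4.13, highest in the same library. Prg2 per Ccr3 was 0.0326, 0.218, 1.40 and 1.90, so that the 2 OVA-induced lungs were closer to each other in this ratio than to the normal lungs. Rnase2a per Prg2 was 3.85 in WT and 0.142 in Rab44-KO after OVA, and the 2 genes were not lower by the same factor.

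**Figure D5:**
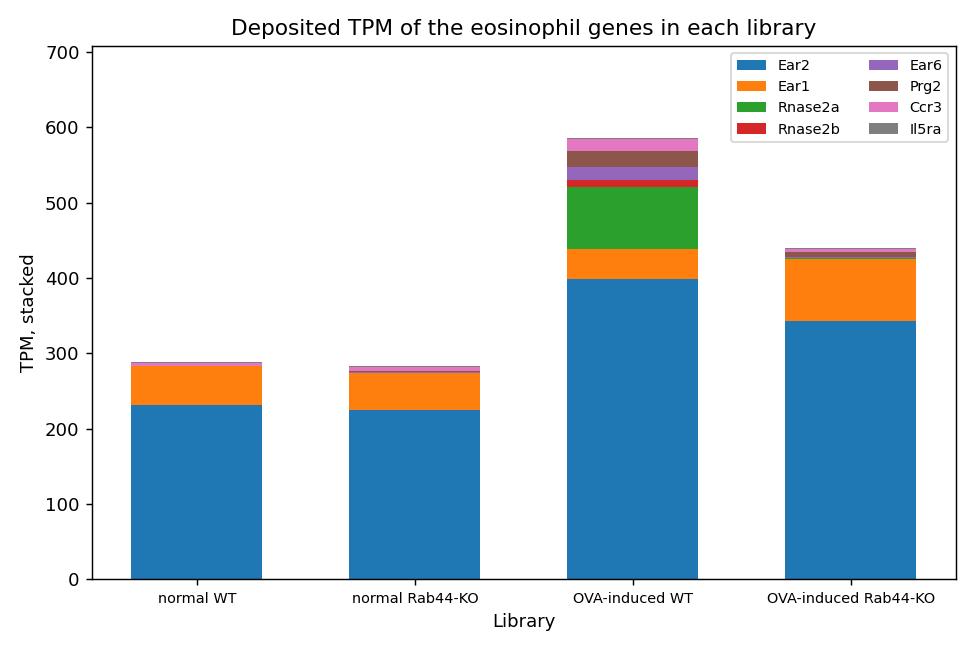
Stacked TPM of the eosinophil genes in each library, as deposited and without replicates. Ear2 and Ear1 fill nearly the whole bar in 3 libraries, and Rnase2a, Prg2, Ear6, Ccr3 and Rnase2b are visible as further layers in OVA-induced WT, whose bar reaches 586 TPM.

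The genes whose pattern over the 4 libraries was nearest were sought among 13899 genes with at least 100 counts in their highest library, by the Euclidean distance of mean-centred log2 CPM. For Ccr3 these were the ribosomal protein gene Rpl17 (0.27), the water channel gene Aqp3 (0.36) and Pclaf (0.39). Nearest to Prg2 were Ighv1-80 (1.11) and Ighv1-18 (1.19), variable segments of the immunoglobulin heavy chain, and the chemokine gene Cxcl5 (1.35). Rnase2a had none within 2, its nearest being Ighv14-2 (2.44), Awat1 (2.46) and Ighv8-8 (3.05). With 0 and 1 counts of Rnase2a in the normal lungs, its distances depend on the prior count. Ear6 was nearest to Ighv2-2 (0.37), Pla2g4c (0.38) and the chemokine receptor gene Cxcr1 (0.55). Ear1 was nearest to Dnai4 (0.04), Rhoj (0.05) and Fam72a (0.05), and Ear2 to Arrb2 (0.01), Pdia4 (0.03) and Arhgap30 (0.05). Of these 6 genes, none was among the 3 nearest of another, and Ear1 and Ear2 were the closest pair at 1.05. Il5ra and Rnase2b, under 100 counts, were left out of this search. With 4 libraries, a distance describes 4 values and nothing of shared control.

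Ligands were counted on a list of 13 cytokine and chemokine genes that act on eosinophils or belong to the type 2 response. In OVA-induced lungs, 9 of 11 compared genes were over 2-fold lower in Rab44-KO, and none was over 2-fold higher, against 7.34% and 8.4% of all genes, shares that also stand behind the list counts between genotypes given below. Of the 9, Csf2, Il4 and Il13 reached the minimum only through the WT library, in which they were high, so their calls follow in part from the filter. The median was -2.83, or -2.13 with Il13, which had 13 counts in WT and 0 in Rab44-KO, at its bound. Ccl11, the first eotaxin, had 94, 141, 965 and 110 counts. It was 8.83-fold lower in Rab44-KO than in WT after OVA. Ccl24, another CCR3 ligand, was low in all libraries but OVA-induced WT, with 19, 17, 114 and 16 counts. Ccl8, a chemokine of the monocyte chemoattractant family, had 31, 43, 1226 and 44. These 3 genes and Ccr3 itself were each highest in OVA-induced WT. Il5, the ligand of Il5ra, had 16, 19, 8 and 7 counts, did not reach the minimum between OVA-induced lungs, and did not share that order. In the OVA response, 9 of 12 compared ligands were over 2-fold higher in WT and 2 lower, against 8.99% and 5.2% of all genes. Of the 9, Ccl7, Il4 and Il13 reached the minimum only through the OVA-induced library. The 2 lower ligands were Il5 and Tslp. Il5, with 16 counts in normal and 8 in OVA-induced WT, reached the minimum only through the normal library, in which it was high. In Rab44-KO, 0 of 10 were over 2-fold higher and 4 lower (Il5, Csf2, Ccl7 and Tslp), against 6.44% and 3.85%. Of the 4, Il5 and Csf2 reached it only through the normal library, in which they were high.

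Of 15 other surface genes of eosinophils, 3 were over 2-fold lower in Rab44-KO than in WT after OVA, none was over 2-fold higher and the median was -0.58. Itga4, an integrin subunit that also serves other leukocytes, had 1322 counts in WT and 2245 in Rab44-KO after OVA, and was thus higher in Rab44-KO. Among 8 transcription factors of the lineage, 3 were over 2-fold lower and 1 higher, with a median of -0.42. Cebpe, which drives late granulocyte maturation, had 24, 22, 126 and 16 counts in the 4 libraries. Gata1, needed for eosinophil development, had 28, 15, 64 and 28. Both were highest in OVA-induced WT. Gata2, which is also expressed in endothelium, had 2443, 2211, 1915 and 4358 counts and was highest in OVA-induced Rab44-KO. Of 8 other granule and cytoplasmic genes, 7 were compared, and Rab44 itself and Alox15 were over 2-fold lower. Rab44 is the edited gene, so its call follows from the design. Alox15, a lipoxygenase of eosinophils and macrophages, had 131, 153, 942 and 190 counts.

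The other ribonuclease A genes of chromosome 14 numbered 14, of which 3 reached the count minimum. Rnase6, a ribonuclease of monocytes and macrophages, had 268, 262, 639 and 303 counts and was 2.12-fold lower in Rab44-KO than in WT after OVA. Ang, which encodes angiogenin, had 391, 353, 502 and 289 counts, and Rnase4 had 7335, 7565, 7857 and 5864. In TPM, Rnase6 (28.0) and Ang (68.5) were highest in OVA-induced WT, whereas Rnase4 was highest in normal Rab44-KO (503). Ear14 had 0 counts in all libraries.

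Transcripts of other cells differed between the same libraries, and their part in the values above was not tested. All 7 type 2 macrophage markers reached the minimum, and 6 were over 2-fold lower in Rab44-KO than in WT after OVA. Their summed TPM was 733, 729, 16436 and 1885. Of 9 alveolar macrophage markers, 3 were over 2-fold lower and 1 higher, and the sum was 540, 534, 714 and 482 TPM. Car4 gave the largest part of that sum in every library, with 298, 248, 248 and 191 TPM. Marco among them had 145, 379, 912 and 76 counts. Of 8 mast cell and basophil markers, 6 were compared and 4 (Fcer1a, Mcpt8, Tpsb2 and Cma1) were over 2-fold lower, with sums of 14.6, 11.5, 18.04 and 11.5 TPM. Those 4 reached the minimum only through OVA-induced WT, in which they were high, and Mcpt4, with 1 count there and 8 in OVA-induced Rab44-KO, was not compared. Of 8 neutrophil markers, 2 (Mmp8 and Ly6g, the latter compared only through its 20 counts in Rab44-KO) were over 2-fold higher in OVA-induced Rab44-KO and none lower, with 6 above and 2 below WT and sums of 333, 428, 1800 and 2739 TPM. Prss34 of the basophil list and Ly6g, Camp and Ngp of the neutrophil list were at 0 in normal WT, and no other of these markers was at 0 in any library. Plasma cell markers were over 2-fold lower for 4 of 5 (sums 242, 244, 1167 and 542 TPM), with Tnfrsf17 among them compared only through its 46 counts in WT, and B cell markers for 1 of 6 (236, 176, 449 and 330). Markers of lung epithelium and endothelium were over 2-fold lower for 1 of 7, with sums of 164188, 163134, 130001 and 140773 TPM.

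Of 8 housekeeping genes, 7 were found and 1, Ppia, was over 2-fold lower in Rab44-KO than in WT after OVA, with a median of -0.61 and a range from -1.12 to 0.20 over the 7. The differences of Ear2 (-0.55) and Il5ra (-1.08) were within this range, whereas those of Rnase2a, Rnase2b, Ear6, Ccr3 and Prg2 were below it and that of Ear1 (0.75) was above. Gapdh had only 47, 34, 83 and 49 counts, and 74.0% of its 150-base stretches are shared with other genes. The handling of reads with several matches is not given in the sources used here, and its part in the 0 counts of Ear10 was not tested.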

How the data were processed

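Lung libraries were sequenced by the authors as paired-end reads, aligned to GRCm38 with HISAT2 and counted per gene with featureCounts. The authors deposited raw counts and TPM. Tool versions and the settings for strand and for reads with several matches are not given in the sources used here. The authors name DESeq2 for their own comparisons. Gene coordinates in the deposited data are not those of the GRCm38 annotations used here. Positions were therefore taken by symbol from GENCODE M21, and promoter windows from RefSeq (GRCm38.p6). They need not match the features that were counted.

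Counts were scaled by TMM over the 4 libraries (factors 0.973 to 1.02) with edgeR 4.0.16 in R 4.3.3, and log2 ratios used a prior count of 0.125. Ratios have exact Clopper-Pearson intervals, CPM exact Poisson intervals, and differences between responses exact conditional intervals. Python 3.11.15, numpy 2.4.6, pandas 2.3.3, scipy 1.17.1, Biopython 1.88 and matplotlib 3.10.9 were used. On simulated counts over 41079 genes, 100% of 200 changed genes were recovered, and intervals covered the true ratio for 95.25% to 96.3% of genes by comparison. The planted changes were all beyond 2-fold, in genes with at least 100 expected counts, so recovery was close to certain beforehand. Counts were drawn with counting error only, so the check says nothing of differences between mice.

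The genes and lists were chosen with earlier results of these data known. Named genes were the 10 genes, genes of the lists of eosinophil, ligand, ribonuclease and cell type marker genes, and the 3 genes nearest to each gene with at least 100 counts. Alternatives were DESeq2 1.42.0 size factors, total counts, TMM on the 2 compared libraries, a prior count of 2, TPM with a pseudocount of 0.1, thinned counts, minimums of 1 and 50 counts, a 4-fold threshold and a requirement that the whole interval lie past 2-fold. A further alternative, which took off the running median over 501 genes ordered by transcript length, was added after seeing the data.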

Additional observations from a re-analysis of the deposited data

Results flagged for a closer look

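The OVA responses of Ear1 and Ccr3 had opposite signs in the 2 genotypes, each from 1 library per group, and neither difference was tested over replicates. The interval of the Ear1 response in WT, -0.22 (-0.47 to 0.02), includes 0, so an opposite direction is not shown for Ear1 by counting error. For Ear1 the response of Rab44-KO minus that of WT was 0.86 on the log2 scale, and Rab44-KO over WT with OVA minus that without OVA is the same value, 0.86. For Ccr3 both differences were -2.89.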

How the results depend on the processing

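No paired analysis was possible because each group has 1 library. Over 11 alternative settings, 83 of 88 counts of genes over 2-fold stayed within 1.5 times the reported count, and, over the settings that give a ratio of its own, 166 of 175 single-gene ratios moved by less than their counting interval. Most of the reported counts were 0, and a drop from 6 to 4 at the 4-fold threshold still lay within 1.5 times. None of the single ratios that passed 2-fold changed sign. Of the rest, Il5ra in normal lungs changed sign once, with thinned counts. With a minimum of 1 count, the number of genes over 2-fold higher in Rab44-KO went from 0 to 4 in normal lungs, and that of genes higher with OVA in Rab44-KO from 1 to 2. With a minimum of 50 counts the latter went to 0, since Prg2 had 48 counts. After OVA, the number of genes with a Rab44-KO level above 2 times that of WT went from 0 to 1, Ear1, both with TPM (1.07) and after removal of the length trend (1.23), and the cause was not tested. With TPM the median of all genes shifted by 0.32 for this comparison, by -0.17 for OVA in WT and by 0.12 for OVA in Rab44-KO. Relative to that shift the Ear1 value would not stand beyond 2-fold, and Il5ra, at -0.72 in TPM, would stay close to its reported value. Genes over 2-fold lower in OVA-induced Rab44-KO numbered 5 to 7 over the settings with a 2-fold threshold, and 4 were over 4-fold lower. Between OVA-induced lungs, removal of the length trend took Prg2 from -1.95 to -1.53, Rnase2a from -6.69 to -6.22 and Rnase2b from -5.09 to -4.57. Ear6 went from -3.77 to -3.29 and Ccr3 from -2.39 to -2.29, whereas Il5ra was -1.08 before and -1.09 after. Depth limits Epx and, outside OVA-induced WT, Rnase2a, Rnase2b and Ear6, which had at most 8 counts there.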

Other observations

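Other eosinophil-related genes were also described in their response to OVA. Of 15 surface genes, 9 were over 2-fold higher after OVA in WT lungs, with a median of 1.22, and 3 in Rab44-KO, with a median of 0.71. Of 8 transcription factors, 3 were over 2-fold higher in WT and 0 in Rab44-KO, with medians of 0.80 and 0.37. Neutrophil markers were over 2-fold higher for 7 of 7 compared in WT and 8 of 8 in Rab44-KO, with medians of 2.67 and 2.91. Camp and Ngp in both genotypes, and Ly6g in Rab44-KO, reached the minimum only through the OVA-induced library, in which they were high. Over all genes 8.99% were over 2-fold higher in WT and 6.44% in Rab44-KO, and differences between the genotypes in these counts were not tested.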
